A study of Homo sapiens with 6 samples.

Results

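NFE2L2, the gene of the transcription factor NRF2, its inhibitor KEAP1 and 7 antioxidant genes (GCLC, GCLM, SLC7A11, TXNRD1, NQO1, HMOX1 and GPX4) were followed across 6 one-colour Affymetrix arrays. The members were all probe sets that the platform annotation assigned to 1 of these 9 genes alone, which gave 20 of the 54675 probe sets on an array. They were chosen by gene name and not by their signal. The parental group held 3 samples of untransfected MDA-MB-231, an established human breast cancer line that lacks the oestrogen receptor and has mesenchymal features. The other group held 3 samples labelled 231wCFry, described as a single stable MDA-MB-231 clone that carries a 10791-base-pair cDNA of wild-type Cop (Copenhagen rat) Fry and went through puromycin selection. Both lines were grown in the same serum-containing medium and harvested at 70% confluence. The clone was picked for a Fry level near that of MCF10A, a non-transformed breast epithelial line, and it is 1 clone. No clone with an empty vector was analysed here. The design text states that the samples of each line differed in passage number, but not which sample had which passage, and no label names separate cultures, so the p-values measure only the spread between these samples, which may be technical.

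NRF2 is a transcription factor of the cap'n'collar family. In unstressed cells KEAP1, an adaptor of the CUL3 ubiquitin ligase, binds NRF2 and marks it for degradation, and oxidants or electrophiles that modify cysteines of KEAP1 let NRF2 accumulate, pair with a small MAF protein and bind antioxidant response elements. NRF2 is thus controlled largely at the level of protein, which arrays do not measure. Its targets make and recycle glutathione and thioredoxin and detoxify quinones and haem. GPX4 uses glutathione to reduce lipid peroxides in membranes and is the central enzyme that holds back ferroptosis, an iron-dependent form of cell death.

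The samples labelled 231wCFry did not carry the marker pattern of their labelled parent. All 5 breast epithelial markers examined fell, with a summed signal of 7265.2 to 7859.3 in parental samples and 1513.6 to 1618.6 in the others. Most of the second sum was KRT18, a keratin that fell from a mean of 2992 to 1507 and so stayed bright. KRT19, a keratin of simple epithelia, fell at least 474-fold and stood at 1669 ± 43.5 (SD, n = 3) and 1.1 ± 0.35, and EPCAM, an epithelial adhesion molecule, at 234.5 ± 31.7 and 4.6 ± 2.29. Of 7 melanocyte and neural crest markers 6 rose and PMEL did not pass, with sums of 384.6 to 469 and 5005.3 to 5470.2. The pigment cell genes stayed dim, with MLANA and TYR rising to means of only 35.5 and 25.5 and PMEL at 10.8 and 5.17. MITF rose from a mean of 399 to 1129 and ERBB3 from 20.2 to 816. SOX10, a neural crest factor, stood at 0.43 ± 0.32 in the parental samples and 1395.1 ± 22.3 in the others, and S100B, a glial and melanocyte protein, at 0.7 ± 0.87 and 1770.1 ± 93.3. Of 5 markers of mesenchymal-like breast tumour cells CD44 rose, PLAU, AXL and CAV1 fell and VIM did not pass, with sums of 15703 to 17656.7 and 11641.7 to 14498.5. The hepatocyte, endothelial and blood lists summed to at most 26.4, 271.8 and 6 on any array, and within them APOA1 and PECAM1 fell. The 4 probe sets of human FRY read at most 9.8, and they do not check for the rat cDNA. RNA integrity, read as the GAPDH control signal at the 3' end over that at the 5' end, gave ratios between 1.36 and 1.39 for parental samples and between 1.24 and 1.33 for the others. The same ratio of the actin control overlapped, with 2.59 to 3.004 and 2.45 to 2.65. In each result below, the introduced Fry, the selection of a clone and the different marker pattern cannot be told apart, and the part of RNA quality was not tested. In such bulk samples, fewer cells with a transcript and less transcript per cell cannot be told apart either.

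The 9 genes mostly differed little between the groups, and the glutathione synthesis pair stood out. GCLC, the catalytic subunit of glutamate-cysteine ligase, was higher in the samples labelled 231wCFry, 1.94-fold by its brightest probe set, and GCLM, the modifier subunit of the same enzyme, was 2.61-fold lower. GPX4 fell from a mean signal of 1497 ± 174 (SD, n = 3) to 995 ± 46.5. NFE2L2 was 1.21-fold higher and NQO1 1.19-fold lower, both close to the limit of the test. KEAP1, SLC7A11, TXNRD1 and HMOX1 did not pass at their main probe sets.

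Signals are linear and in arbitrary units. Changes are differences in log2(signal + 16), the samples labelled 231wCFry minus the parental samples, tested with limma over all 32768 probe sets that passed a filter on low values, and called at a Benjamini-Hochberg adjusted p under 0.05. A fold is the ratio of mean signals. Each gene was read through the probe set whose mean log2 signal was highest, called its main probe set here. By these rules 2 of the 9 genes rose, 3 fell and 4 did not pass. Among all 13606 genes tested 66.9% were called, 33.9% as higher and 32.9% as lower. Of the 20 member probe sets 18 passed the filter, and of those 4 rose, 5 fell and 9 did not pass, where 62.4% of all tested probe sets were called, 30.2% as higher and 32.2% as lower. The share of members called was lower than the background, but 9 genes are few and the 18 probe sets read the same genes. Whether the shares differ was not tested. The median absolute log2 change of the 9 genes was 0.25, against 0.47 over all genes tested. The groups did not overlap in 5 of the 9 genes, against 73% of all genes tested, and in 10 of the 18 probe sets, against 67.2%. An absolute log2 change of at least 1 was found in 1 of the 9 genes, GCLM, and in 23% of all genes tested.

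**Figure D1:**
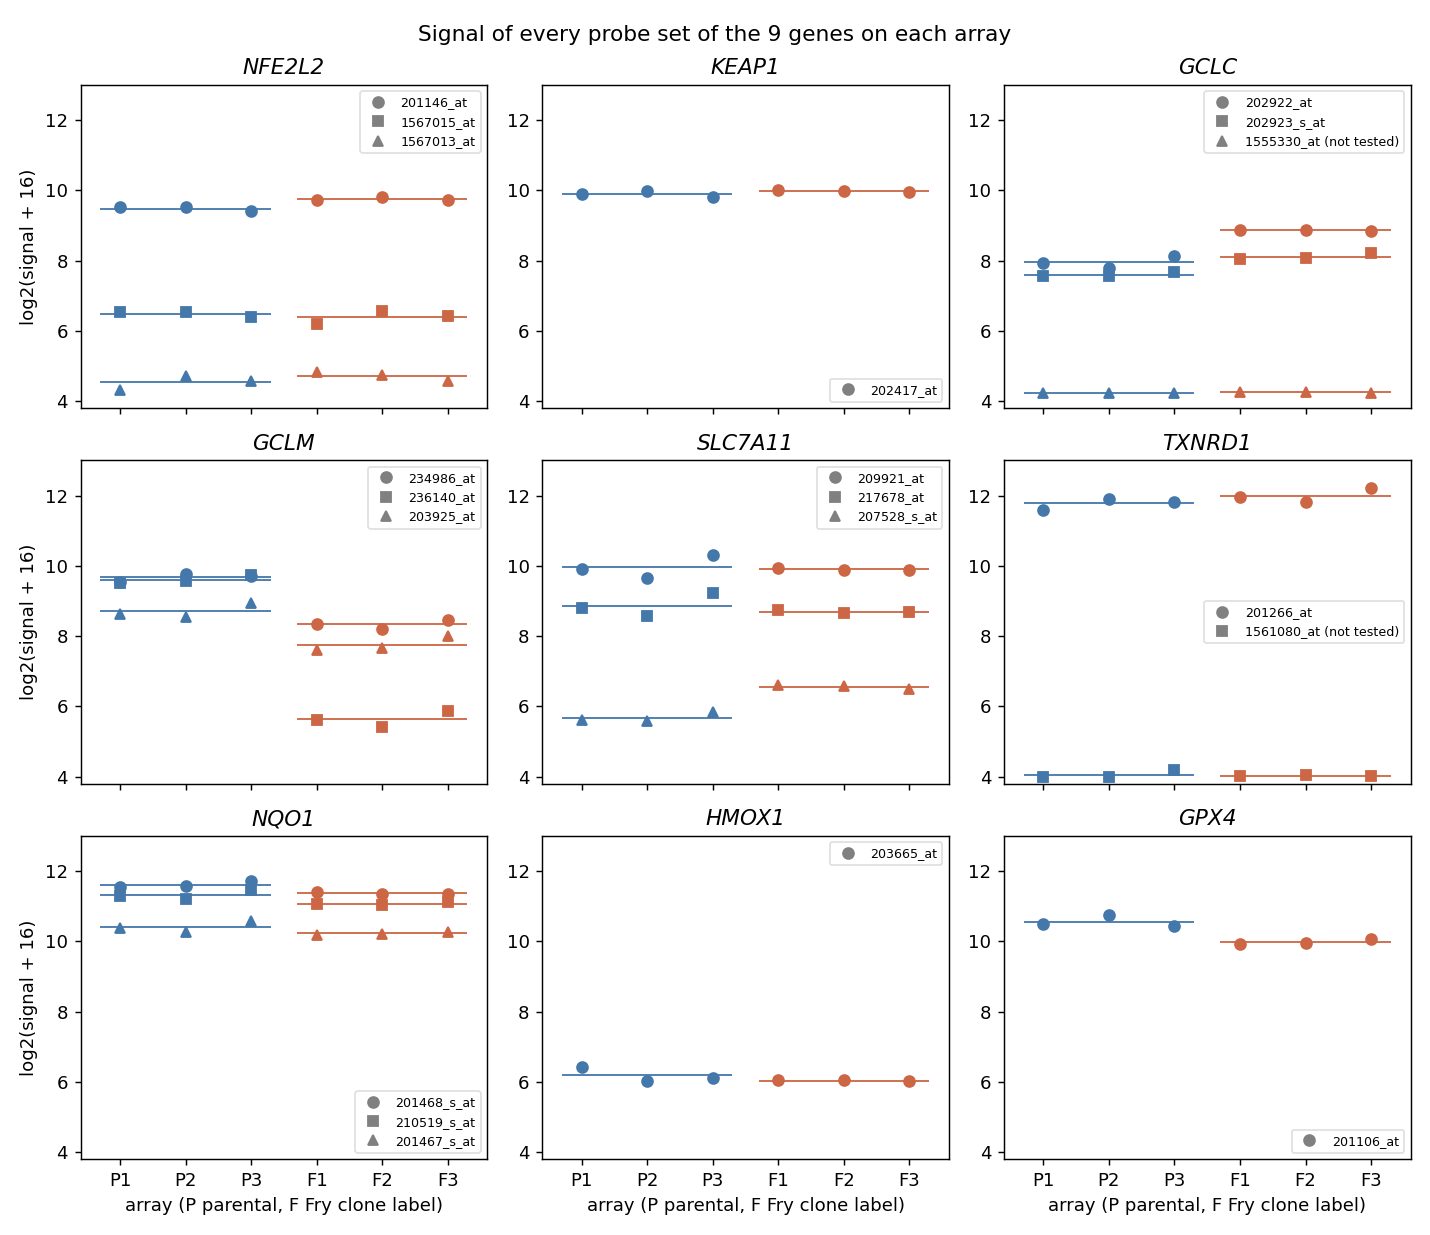
Signal of all 20 probe sets of the 9 genes on each array, as log2(signal + 16), with parental arrays (P1 to P3, blue) and arrays labelled 231wCFry (F1 to F3, orange). Points are arrays, symbols are probe sets and horizontal lines are group means; the groups separate in opposite directions for GCLC and GCLM.

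**Figure D2:**
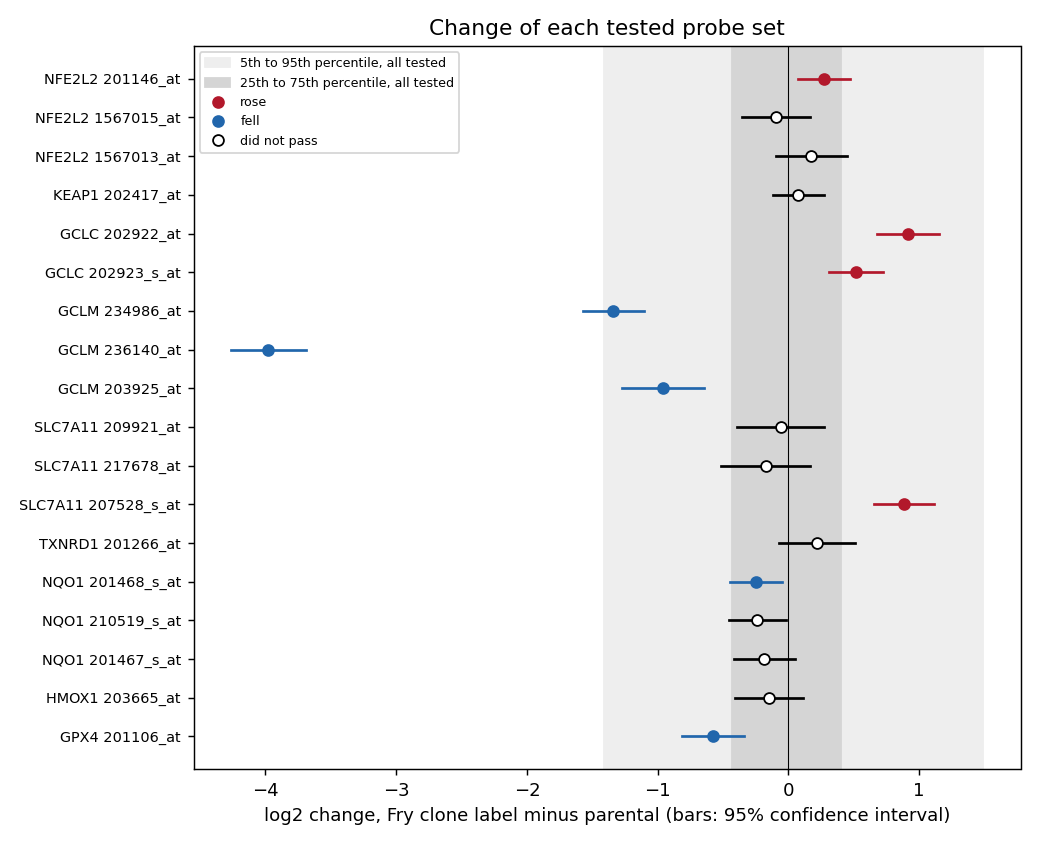
Log2 change of the 18 tested member probe sets with 95% confidence intervals from limma. Shaded bands hold the middle of all 32768 tested probe sets, from -0.43 to 0.41 (25th to 75th percentile) and from -1.41 to 1.49 (5th to 95th percentile); GCLM probe set 236140_at, at -3.98, lies outside both.

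NFE2L2 was read by 3 probe sets. Its main probe set, 201146_at, read 715, 715.8 and 666.5 on the parental arrays and 825.8, 887.3 and 827.8 on the arrays labelled 231wCFry. Every array of the second group lay above every parental array. The log2 change was 0.27 (SE 0.09, adjusted p = 0.022, limma), a smaller absolute change than that of 64.5% of all tested probe sets. Probe set 1567015_at read 67.6 to 77.7 and 57.4 to 79.5, and 1567013_at read 4.1 to 10.3 and 7.9 to 12.2. Both overlapped between the groups and did not pass (log2 changes of -0.09 and 0.17, adjusted p = 0.51 and 0.24, limma). The rise therefore rests on 1 of the 3 probe sets. It was lost without the third parental array (adjusted p = 0.061), without the second array labelled 231wCFry (0.075), and when the gene was read by the mean of its probe sets (0.12, adjusted p = 0.20).

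KEAP1 had 1 probe set, and its signals lay close together. It read 945.3, 986.7 and 883.6 on the parental arrays and 1005.2, 997.5 and 967.6 on the others. The groups overlapped, since the second parental array exceeded the third array of the other group. The log2 change was 0.08 with a 95% interval of -0.12 to 0.28 (adjusted p = 0.47, limma).

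Glutamate-cysteine ligase makes the first and rate-limiting step of glutathione synthesis. GCLC holds the active site and GCLM lowers its feedback inhibition by glutathione. GCLC probe set 202922_at read 228.7, 204 and 263 on the parental arrays and 453.7, 452.9 and 442.5 on the others. The second probe set, 202923_s_at, read 171.5 to 186.8 and 248.5 to 282.3. In both, all arrays labelled 231wCFry were above all parental arrays. The log2 changes were 0.92 (SE 0.11, adjusted p = 5.10e-05) and 0.52 (SE 0.09, adjusted p = 9.22e-04, limma). Larger absolute changes were found in 21.7% and 42.3% of all tested probe sets. The remaining GCLC probe set, 1555330_at, read 2.7 to 3.3 on all arrays and was removed by the filter.

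GCLM had 3 probe sets and all fell, with no overlap between the groups. The main probe set, 234986_at, read 726.3, 857.5 and 822.5 on the parental arrays and 307.4, 281.2 and 332.8 on the others (log2 change -1.34, SE 0.10, adjusted p = 3.55e-06, limma). Probe set 203925_at read 381.3, 359.3 and 478 against 179.6, 185.9 and 239.1 (-0.96, SE 0.14, adjusted p = 2.49e-04, limma). The fall was much larger by 236140_at, which read 720.6, 736.8 and 846.8 against 33.3, 26.8 and 42 (-3.98, SE 0.13, adjusted p = 7.77e-09, limma). That is a 22.6-fold lower mean signal, and 1.18% of all tested probe sets had a larger absolute change. The same share was 11.6% for the main probe set 234986_at and 20.4% for 203925_at. The changes of the 3 probe sets spanned 3.02 on the log2 scale. A wider span was found in 1.45% of the 7235 genes with several tested probe sets, whose median span was 0.45. Read by the mean of its probe sets, GCLM had a log2 change of -2.09.

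The opposite changes of the ligase subunits were also read within each array. The difference between GCLC 202922_at and GCLM 234986_at in log2(signal + 16) was -1.60, -1.99 and -1.59 on the parental arrays and 0.54, 0.66 and 0.39 on the others, a shift of 2.26. The level of this difference depends on the probes, so its shift between groups is the measurement. Within GCLM, the difference between 236140_at and 234986_at shifted by -2.64, and that between 236140_at and 203925_at by -3.02. The shifts of the other 3 pairs examined were -0.38 for GCLM 234986_at over 203925_at, 0.40 for GCLC 202922_at over 202923_s_at, and 0.94 for SLC7A11 207528_s_at over 209921_at. In each of the 6 pairs the groups did not overlap. The exact two-sided permutation p was 0.10 for every pair, also after adjustment over the 6 pairs, which is the smallest value that 3 against 3 arrays can give. The pairs were chosen after the values had been seen. Each shift is the difference between the log2 changes of its probe sets, so the pairs give no separate support for those changes.

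**Figure D3:**
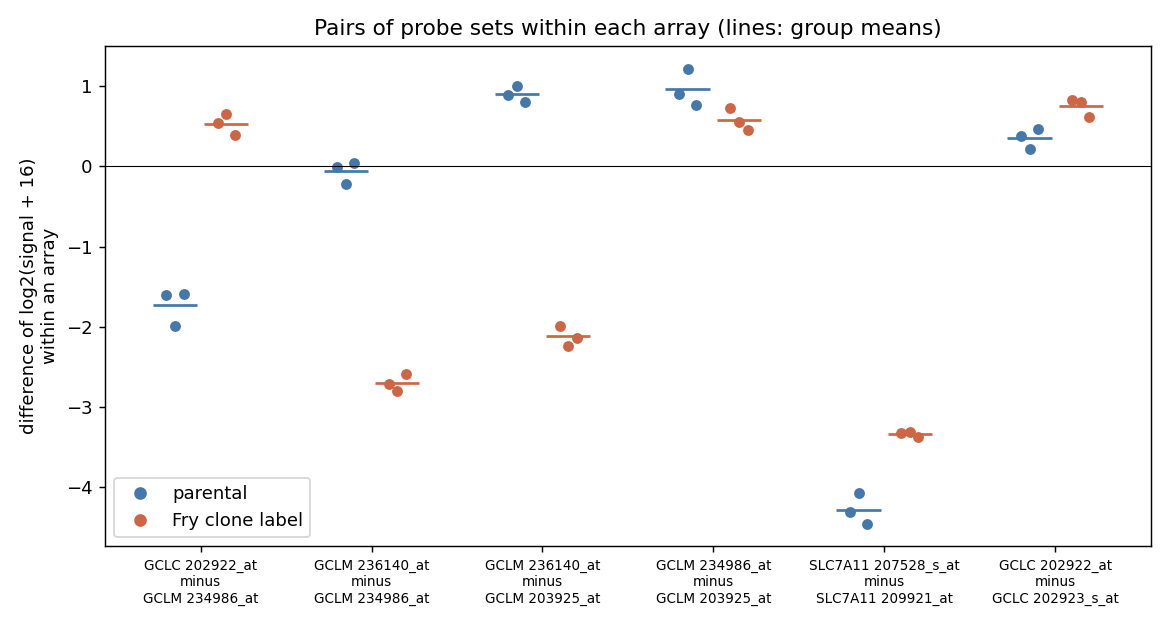
Difference in log2(signal + 16) between the probe sets of a pair within each array, for 6 pairs, with parental arrays in blue and arrays labelled 231wCFry in orange. Points are arrays and lines are group means; the shift between the colours is 2.26 for GCLC over GCLM and -2.64 for GCLM 236140_at over 234986_at.

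The genes nearest to GCLM in pattern, by Euclidean distance over the 6 log2 values of each gene's probe set, were LSM6 (0.25), a subunit of RNA-binding LSM complexes, STYXL1 (0.32) and TRAK1 (0.33), an adaptor of mitochondrial transport. LSM6 fell from 766 ± 27.9 (SD, n = 3) to 306 ± 5.55. With 2 groups that differ in most genes, such a distance mostly reads the group means.

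Promoter sequence was examined because GCLC and GCLM, which encode subunits of the same enzyme and are both known NRF2 targets, changed in opposite directions. Sequences were from the RefSeq promoter table of GRCh38.p14, in which 7 of the 9 genes were matched, with 12 transcript starts in all. HMOX1 and SLC7A11 were not matched. The 250 bases before each start were searched on both strands for TGACNNNGC, the core of the antioxidant response element, in which N is any base. That core overlaps the AP-1 motif TGACTCA where its variable bases are TCA, and no member promoter held TGACTCA. The core was found in 10.9% of all 35116 promoters of the same length. Among the members it was found before the start of GCLM, before the second listed start of KEAP1 (2 matches, TGACACGGC and, on the opposite strand, GCTTAGTCA) and before both listed starts of TXNRD1. The GCLM match, GCTTAGTCA, is on the opposite strand and lies 34 to 26 bases before the start. No match was found in these windows for GCLC, NFE2L2, NQO1 or GPX4. Sequence farther from the start was not searched, so these genes may hold the core elsewhere. The windows of GCLC and GCLM, and that of the first TXNRD1 start for comparison, are printed 5′ to 3′ on the strand of the gene, with matches in capitals. GCLC lies at chr6:53545102-53545351 (minus strand), GCLM at chr1:93909431-93909680 (minus strand) and TXNRD1 at chr12:104215529-104215778 (plus strand).
GCLC: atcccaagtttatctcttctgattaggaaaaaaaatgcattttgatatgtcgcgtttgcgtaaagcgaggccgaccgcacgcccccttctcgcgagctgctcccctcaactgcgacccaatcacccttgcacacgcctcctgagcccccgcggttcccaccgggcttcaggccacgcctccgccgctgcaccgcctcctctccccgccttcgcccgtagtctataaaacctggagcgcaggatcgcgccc
GCLM: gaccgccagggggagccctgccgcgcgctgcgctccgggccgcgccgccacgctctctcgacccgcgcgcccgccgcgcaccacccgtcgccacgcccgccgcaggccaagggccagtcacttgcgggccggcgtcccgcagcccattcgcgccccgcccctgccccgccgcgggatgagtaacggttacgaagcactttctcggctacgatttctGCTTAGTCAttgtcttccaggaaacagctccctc
TXNRD1: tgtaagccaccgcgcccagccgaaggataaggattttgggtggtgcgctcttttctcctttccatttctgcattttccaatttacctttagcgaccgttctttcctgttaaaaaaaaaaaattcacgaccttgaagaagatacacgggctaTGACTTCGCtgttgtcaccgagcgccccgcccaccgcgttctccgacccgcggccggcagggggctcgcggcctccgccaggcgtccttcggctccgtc
A match describes these letters only. GCLM, TXNRD1 and KEAP1, which hold the core, had log2 changes of -1.34, 0.22 and 0.08, of which only that of GCLM passed. GCLC, NFE2L2, NQO1 and GPX4, without a match in these windows, had changes of 0.92, 0.27, -0.25 and -0.58, and all passed.

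SLC7A11 is the transport subunit of the cystine-glutamate exchanger, which brings in the cystine from which glutathione is made. Its main probe set, 209921_at, read 951.7, 793.4 and 1245.5 on the parental arrays and 963.9, 929.1 and 928.4 on the others. The parental arrays spread on both sides of the other group, and the log2 change was -0.06 with a 95% interval of -0.39 to 0.28 (adjusted p = 0.75, limma). Probe set 217678_at read 366.8 to 582 and 385.7 to 409.8 and did not pass either (-0.17, adjusted p = 0.34, limma). The dimmer probe set 207528_s_at read 32.7, 32 and 41.5 against 82, 79.1 and 75, and rose without overlap (0.89, SE 0.10, adjusted p = 4.86e-05, limma). The 3 probe sets of SLC7A11 therefore disagree. Without the third parental array the changes of 209921_at and 217678_at turned to 0.11 and 0.0058, and neither passed.

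TXNRD1 encodes the cytosolic thioredoxin reductase, a selenoprotein that keeps thioredoxin reduced. Probe set 201266_at read 3075.7, 3847.8 and 3627.2 on the parental arrays and 3951.6, 3602.4 and 4749 on the others. The groups overlapped, and the log2 change of 0.22 (95% interval -0.07 to 0.51) did not pass (adjusted p = 0.17, limma). It passed after quantile normalization (0.26, adjusted p = 0.037). The other TXNRD1 probe set, 1561080_at, read at most 2.1 on any array and was removed by the filter.

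NQO1 reduces quinones by transfer of a pair of electrons and is a widely used readout of NRF2 activity. Its main probe set, 201468_s_at, read 2999.4, 3054.9 and 3322.9 on the parental arrays and 2672.8, 2598.9 and 2611.7 on the others. The groups did not overlap, and the log2 change was -0.25 (SE 0.09, adjusted p = 0.033, limma). Probe set 210519_s_at, with 2338.7 to 2790 against 2080.6 to 2204.6, did not overlap either but did not pass (-0.24, adjusted p = 0.057). Probe set 201467_s_at, with 1222.7 to 1515.1 against 1151.5 to 1225.5, overlapped slightly and did not pass (-0.18, adjusted p = 0.15). The log2 differences of the 3 NQO1 probe sets, of which 1 passed, spanned 0.065, a narrower span than in 91.9% of the genes that had more than 1 tested probe set. The call of the main probe set was lost without any single array except the first parental array, with adjusted p-values of 0.043 to 0.092 over the 6 arrays left out in turn. It was also lost after quantile normalization (adjusted p = 0.060).

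HMOX1, the inducible haem oxygenase, splits haem into biliverdin, carbon monoxide and iron. Its single probe set, 203665_at, read 69.6, 48.9 and 53.7 on the parental arrays and 49.9, 50.3 and 49 on the others. Only the first parental array stood apart, and the groups overlapped. The log2 change was -0.15 with a 95% interval of -0.41 to 0.11 (adjusted p = 0.28, limma).

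GPX4 fell. Its single probe set, 201106_at, read 1434.4, 1693.6 and 1363.4 on the parental arrays and 965.3, 971.2 and 1048.6 on the others. The lowest parental array lay above the highest array of the other group. The log2 change was -0.58 (SE 0.11, 95% interval -0.81 to -0.34, adjusted p = 0.0011, limma), and 38.1% of all tested probe sets had a larger absolute change.

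Among the parental arrays, the third read highest for many of the NRF2 target genes. Of the 13 tested probe sets of GCLC, GCLM, SLC7A11, TXNRD1, NQO1 and HMOX1, 10 were highest on that array, against 36.4% of all tested probe sets. The 10 were both probe sets of GCLC, all 3 of SLC7A11 and of NQO1, and GCLM 203925_at and 236140_at. Probe sets of the same gene read the same RNA on the same array, so the 10 are not independent. The same array was the lowest of the 3 for KEAP1, for GPX4 and for NFE2L2 201146_at. Within the group labelled 231wCFry, the third array was highest in 7 of the 13 and in 33.6% of all tested probe sets. This grouping of targets was made after the values had been seen, and no test was applied. The passage of each sample is not given in the labels, so its part was not tested.

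Other genes of the pathway were read from 8 lists of 116 genes, of which 103 were tested. Together 31 rose, 39 fell and 33 did not pass, with a median log2 change of -0.08 and a median absolute change of 0.45, against 0.01 and 0.47 over all genes tested. The share called was near the 66.9% of all genes tested. In the lists, larger changes than any of the 9 genes showed at their main probe sets occurred in both directions. When probe sets that may bind several transcripts (names ending in _s_at, _x_at or _a_at) were left out, 77 of the listed genes kept a tested probe set. Of these 30 rose and 25 fell. That is a share of falls of 32.5%, against 37.9% with every probe set, and the shares over all genes tested were 33.6% and 32.9%. The share of rises was 39.0%, against 30.1% with every probe set, where all genes tested gave 33.7% and 33.9%. The falls were then 1 among the partners and regulators, 3 in the thioredoxin system, 4 in detoxification and 4 in the ferroptosis list. They were 0 among the superoxide and peroxide enzymes. Some listed genes had no probe set left, so a lower count need not mean a lost call.

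Of 12 tested partners and regulators of NRF2, 6 rose, 3 fell and 3 did not pass. MAFF, a small MAF protein that pairs with NRF2, read 620 to 821.8 in parental samples and 2369 to 2722.5 in the others, and rose by both of its tested probe sets (log2 change 1.82, adjusted p = 1.13e-06, limma). DCAF11, a ligase substrate receptor, rose from 112 ± 18.5 (SD, n = 3) to 211 ± 12.2. NFE2L3, a relative of NRF2, fell from 990.3 ± 156 to 359 ± 29.8. BTRC, a ubiquitin ligase subunit that can also target NRF2, fell from 315 ± 37.5 to 117 ± 30.8. Without the cross-hybridising types of probe set BTRC turned to 0.16 and did not pass.

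Of 24 tested genes of glutathione synthesis, recycling and use, 5 rose, 9 fell and 10 did not pass. GSS, which completes glutathione synthesis after glutamate-cysteine ligase, stood at 1577 ± 119 and 1693 ± 86.6, and GSR, which recycles oxidised glutathione, at 751 ± 69.7 and 672 ± 31.7; neither passed. These genes, outside the naming rule, were picked after their values were seen as the enzymes next to the ligase. GPX3, a secreted peroxidase, fell from 641 ± 110 to 1 ± 0.95, at least 180-fold lower. Each fold given as at least a value is a bound against the highest of 27 unspiked control probe sets on each array (2.5 to 4.9), from means of log2 signals. GPX7, a peroxidase of the endoplasmic reticulum, was at least 20.3-fold lower. It read 60 to 88.4 in parental samples and 0.3 to 1.3 in the others, and dropped out under a filter at the 60th percentile. GSTA4, a transferase that conjugates lipid aldehydes, fell from 300.6 ± 16.3 to 64 ± 11.8. CHAC1, which breaks down glutathione, rose from 45 ± 1.44 to 181 ± 15.2. The adjusted p of these 4 named calls was at most 5.20e-07 (limma).

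Of 13 tested genes of the thioredoxin system, 5 rose, 5 fell and 3 did not pass. Without the first parental array, or without the third array labelled 231wCFry, 3 rose. PRDX1, a peroxiredoxin that thioredoxin reduces, read 3040.1, 3255 and 3367.8 on the parental arrays and 10, 7.6 and 7.6 on the others, by its only tested probe set. TXNIP, an inhibitor of thioredoxin, fell from 1401 ± 146 (SD, n = 3) to 255 ± 38.8 and by all 3 of its probe sets. The mitochondrial partners TXNRD2 and TXN2 rose, from 72.4 ± 11.9 to 223 ± 10.4 and from 443 ± 18.9 to 807 ± 37. The TXNRD2 change, 1.44 on the log2 scale, was 0.34 (adjusted p = 0.0098, limma) without _s_at, _x_at and _a_at probe sets and 0.89 for the mean of its probe sets. Of 4 enzymes that remove superoxide and hydrogen peroxide, the extracellular dismutase SOD3 fell, at least 13.5-fold, and the mitochondrial SOD2 rose from 2326 ± 269 to 2938 ± 349 with overlapping groups, a call lost without the first or the third parental array or without the first or the third array labelled 231wCFry (adjusted p up to 0.14, limma). The SOD2 call was also lost with the replicate number as a block (adjusted p = 0.056), with a pseudocount of 1 (0.083), without the filter (0.065) and after median centring (0.063). SOD3 was read by 1 probe set only, of the _x_at type, and dropped out without such probe sets or under a filter at the 60th percentile. SOD1 stood at 3410 ± 129 and 3335 ± 240.0, and CAT, the catalase, at 754 ± 31.9 and 692 ± 18.3, and neither passed.

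Among 7 tested NADPH-producing enzymes 1 rose, 2 fell and 4 did not pass, and 2 rose with a pseudocount of 64, after quantile normalization, without _s_at, _x_at and _a_at probe sets, or by the mean of each gene's probe sets. ME1, the cytosolic malic enzyme, fell from 205 ± 11.7 (SD, n = 3) to 1.2 ± 1.15, at least 58.2-fold. PGD, of the pentose phosphate pathway, fell from 504 ± 16.7 to 323 ± 7.11, and IDH1, the cytosolic isocitrate dehydrogenase, rose from 1027 ± 61.2 to 1549 ± 43.6. IDH1 rose by 2 of its 3 tested probe sets. Among 9 tested genes of haem and iron handling 3 rose, 4 fell and 2 did not pass. The iron exporter SLC40A1 was at least 67.8-fold lower, and FTL, the ferritin light chain, fell from 4785 ± 349 to 2288 ± 40.8. The haem transporters SLC48A1 and ABCB6 rose, from 94.2 ± 14 to 292 ± 11.7 and from 80.8 ± 8.95 to 155 ± 14.5. ABCB6 rose by 1 of its 2 tested probe sets.

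Of 19 tested genes of quinone, carbonyl and conjugate detoxification, 5 rose, 8 fell and 6 did not pass. The aldo-keto reductase AKR1C3, which reduces steroids and quinones, read 1896.4, 1961.3 and 2146.3 on the parental arrays and 26.7, 25.3 and 23.7 on the others (log2 change -5.61, adjusted p = 2.07e-10, limma). AKR1C1 fell from 839 ± 42.2 (SD, n = 3) to 53.5 ± 7.95 and AKR1C2 from 387 ± 30.7 to 50.7 ± 16.7. Both were read by probe sets that can cross-hybridise between these near-identical paralogs, so which gene they read is uncertain. Without such probe sets AKR1C1 stood at -0.19 and did not pass. ABCC2, an exporter of glutathione conjugates, read 10.3 to 14.9 in parental samples and 99.3 to 132.6 in the others. AKR1C3 thus changed by -5.61 on the log2 scale, where the changes of NQO1 and HMOX1, also targets of NRF2, were -0.25 and -0.15.

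Of 15 tested genes of ferroptosis and selenoprotein synthesis, 5 rose, 7 fell and 3 did not pass. LPCAT3, which inserts polyunsaturated fatty acids into membrane lipids, rose from 93.1 ± 11.2 (SD, n = 3) to 287 ± 18.3. SEPHS2, which makes the selenium donor for selenoproteins such as GPX4 and TXNRD1, rose from 1252 ± 58.9 to 2245 ± 88. AIFM2, a ubiquinone reductase that limits lipid peroxidation in parallel to GPX4, fell from 418 ± 30.9 to 238 ± 8.04, a call made by 1 of its 2 tested probe sets. The lipoxygenase gene ALOX5 was at least 7.28-fold lower. The adjusted p of these 4 calls was at most 6.97e-05 (limma).

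**Figure D4:**
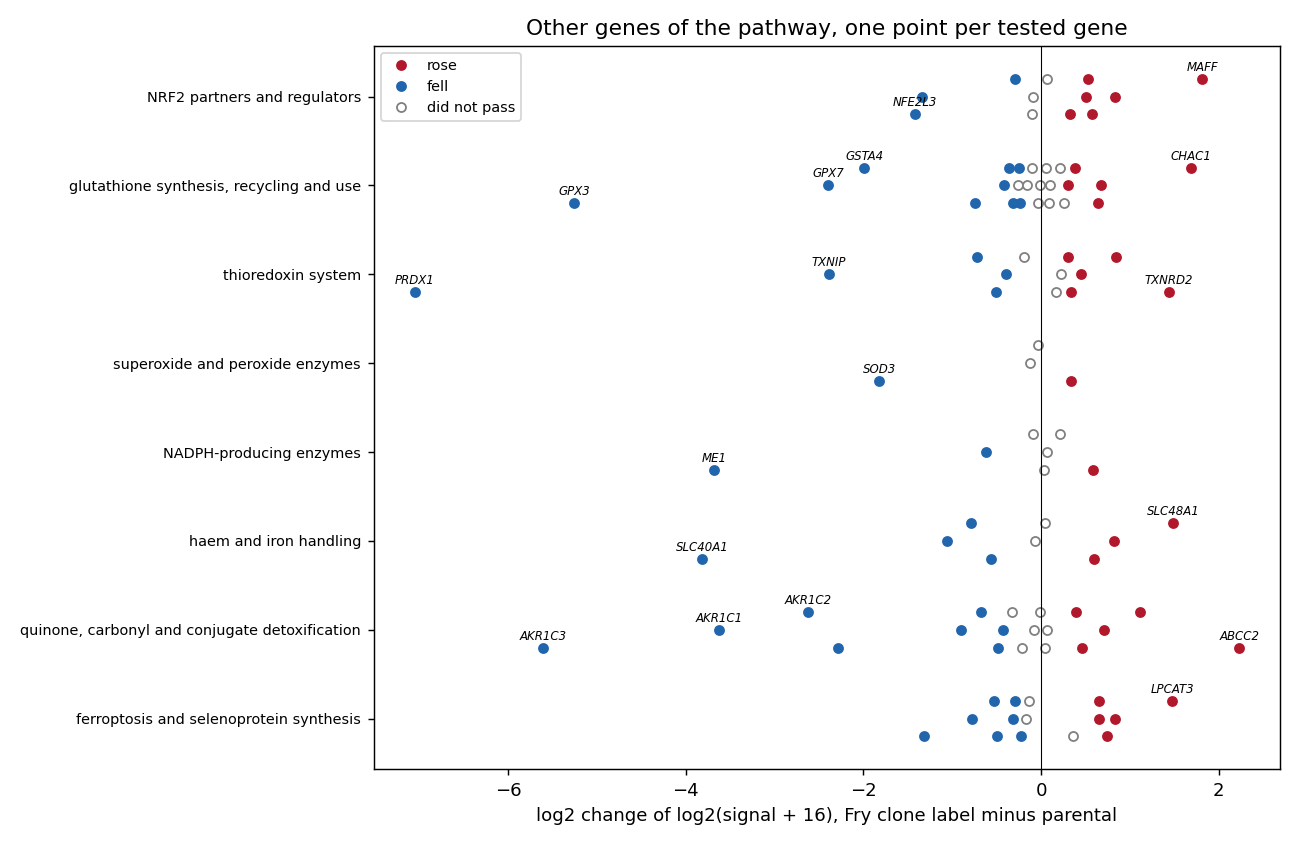
Log2 change of the 103 tested genes of the 8 pathway lists, the samples labelled 231wCFry minus the parental samples, with 1 point per gene. Red points rose, blue points fell and open points did not pass; falls reach -7.05 (PRDX1) and rises reach 2.23 (ABCC2).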

How the data were processed

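Biotin-labelled cDNA amplified from 40 ng of total RNA per sample was hybridised to 1 array per sample, per the labels' protocols. The authors deposited linear signal intensities; the submitters' processing notes name MAS5, whose version and scaling target were not given in the sources used here. After trimming 2% at each end, the mean signal was 150.0 on every array. MAS5 subtracts mismatch signal, so dim values approach 0 and their ratios are unstable. Genes were named from GEO's platform annotation, which gave 1 gene for 41091 of 54613 probe sets that are not controls. Signals were transformed to log2(signal + 16), which understates changes of dim genes. Probe sets with a mean at or above the 40th percentile (signal 5.62) were tested in R 4.3.3 by limma 3.58.1 (lmFit, then eBayes), without covariates. The procedure was run on simulated data in which few probe sets changed, all bright and by more than NFE2L2 or NQO1 did here. How it handles smaller or dimmer changes, or changes in most probe sets, was not tested. Members and lists were chosen with earlier results of these data known. The text names all members, up to 4 genes with the smallest p per list among those called, the 3 genes nearest to the member with the smallest p, FRY, SOX10, S100B, KRT19 and EPCAM. Other marker genes, and GSS, GSR, SOD1 and CAT, were named outside this rule, the last 4 after their values were seen. Alternatives were the pseudocount, the filter, the scaling, the probe sets used, a replicate block and leaving out each array. Precision is limited by having 3 arrays in each group.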

Additional observations from a re-analysis of the deposited data

How the results depend on the processing

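Leaving out each array in turn gave 1 to 2 member genes that rose, with log2 changes of 0.24 to 0.29 for NFE2L2, -0.28 to -0.20 for NQO1 and -0.21 to 0.11 for SLC7A11. Over the same omissions NFE2L2 probe set 1567015_at ranged from -0.18 to 0.0080 and the SLC7A11 probe sets 209921_at and 217678_at from -0.21 to 0.11 and from -0.32 to 0.0058. GCLC, GCLM and GPX4 kept their call and direction in every setting that was run. Quantile normalization moved TXNRD1 past the threshold (0.26) and NQO1 below it (-0.21). Reading a gene by the mean of its probe sets left 1 member gene that rose, with NFE2L2 at 0.12 and SLC7A11 at 0.22. Without probe sets ending in _s_at, _x_at or _a_at, 2 member probe sets rose, 25 other pathway genes fell, BTRC turned to 0.16, and NQO1 had no probe set; fewer probe sets were then tested. The cause of the other differences was not tested. Other scalings moved the median change of all probe sets from -0.02 to at most -0.04. Same-numbered arrays deviated together only weakly (correlations of 0.07, 0.07 and 0.19), and with the replicate block 2 member genes rose and 3 fell, as without it, with GCLC at 0.92 and GCLM at -1.34; among the other named genes the call of SOD2 was lost. Reading genes by the mean of their probe sets also moved GSTA4 to -1.27, SLC40A1 to -2.06, ABCB6 to 0.50 and AIFM2 to -0.33, all still called. Signal near background limits the 2 probe sets that the filter removed.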
